A study of Rattus norvegicus with 44 samples.

Results

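The measurements below concern 7 genes of the calcitonin gene-related peptide (CGRP), adrenomedullin and secretin receptor systems in the kidney of diabetic rats. The genes are Ramp1, Ramp2 and Ramp3, which encode the receptor activity-modifying proteins, Calcrl and Calcr, which encode the receptors they pair with, Adm, which encodes the ligand adrenomedullin, and Sctr, which encodes the secretin receptor. They were chosen by symbol, with results of these same samples already known, from a table of 32883 entries. All 7 were found, each under 1 entry, and all 7 were among the 13482 genes that passed the low-value filter, an FPKM above 1 in at least 9 animals. FPKM counts sequenced fragments relative to the length of the transcript and to the size of the library, so levels of different genes can be set side by side.

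The calcitonin receptor-like receptor (Calcrl product) does not reach the cell surface in a working form on its own. Paired with RAMP1 it is the CGRP receptor, and paired with RAMP2 or RAMP3 it is an adrenomedullin receptor, so the partner sets the ligand. The calcitonin receptor pairs with the same proteins to form amylin receptors, and these receptors, like the secretin receptor, belong to the class B peptide hormone receptors and signal mainly by raising cyclic AMP. CGRP and adrenomedullin are vasodilators, adrenomedullin and its receptors are prominent in endothelium, and the secretin receptor is known from ductal epithelium and, in rodent kidney, from the collecting duct.

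The kidneys came from 44 male obese ZSF1 rats (ZSF-1OB), a hybrid with leptin receptor mutations that becomes obese, hyperglycaemic and proteinuric. Treatment in the feed began at 22 weeks of age and lasted 6 months, in animals that carried implanted telemetry devices for blood pressure. The Vehicle group had 11 animals, the Enalapril group 9 animals at 3 mg/kg/day, the Compound 1 group 12 animals at 1 and later 3 mg/kg/day, and the combination group 12 animals with Enalapril at 3 and Compound 1 at 1 mg/kg/day. Enalapril inhibits angiotensin-converting enzyme, and Compound 1 stimulates soluble guanylate cyclase. There was no lean or nondiabetic group, so every comparison is among diseased animals, and Compound 1 was given at a lower final dose in the combination than alone.

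Whole pieces of kidney were measured, so fewer cells of a type and less RNA per cell cannot be told apart. The total read number is not known from FPKM. The relative depth estimated from low values ran from 0.618 to 1.32 in Vehicle, 0.815 to 1.44 in Enalapril, 0.838 to 1.34 in Compound 1 and 0.826 to 1.36 in the combination, in units of the median of all animals. The group median was lowest in Vehicle, at 0.880, against 1.14 in Enalapril, 1 in Compound 1 and 1.04 in the combination. Mitochondrially encoded genes held 27.5% ± 5.38 of the FPKM in Vehicle, 32.8% ± 5.90 in Enalapril, 30.2% ± 3.96 in Compound 1 and 32.1% ± 4.84 in the combination (SD, n = 11, 9, 12 and 12). The median log2 fold change of all tested genes against Vehicle was -0.15 for Enalapril, -0.07 for Compound 1 and -0.18 when both were given, and the changes given below are not corrected for it.

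In every Vehicle kidney each RAMP mRNA exceeded that of Calcrl, Ramp1 by the smallest margin on average. Ramp2 stood at 29.9 ± 3.80 FPKM, Ramp3 at 26.0 ± 2.97 and Ramp1 at 10.1 ± 2.19 (SD, n = 11), which placed Ramp2 at the 79.2 percentile of tested genes and Ramp1 at the 50.3 percentile. Calcrl stood at 5.25 ± 0.959 FPKM and Calcr at 1.63 ± 0.304, the latter at the 9.67 percentile. Sctr was at 5.16 ± 1.13 FPKM and Adm at 7.82 ± 1.96. In descending order of FPKM the 7 genes were Ramp2, Ramp3, Ramp1, Adm, Calcrl, Sctr and Calcr. The ranges of neighbouring genes overlapped throughout this order except at 2 steps. Every Vehicle animal had at least 21.9 FPKM of Ramp3 and no more than 13.6 of Ramp1, and none fell below 3.46 of Sctr or rose above 2.12 of Calcr. In each Vehicle animal Ramp2 exceeded Calcrl by at least 4.38 times and Ramp1 exceeded Calcrl by between 1.20 and 4.23 times.

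**Figure D1:**
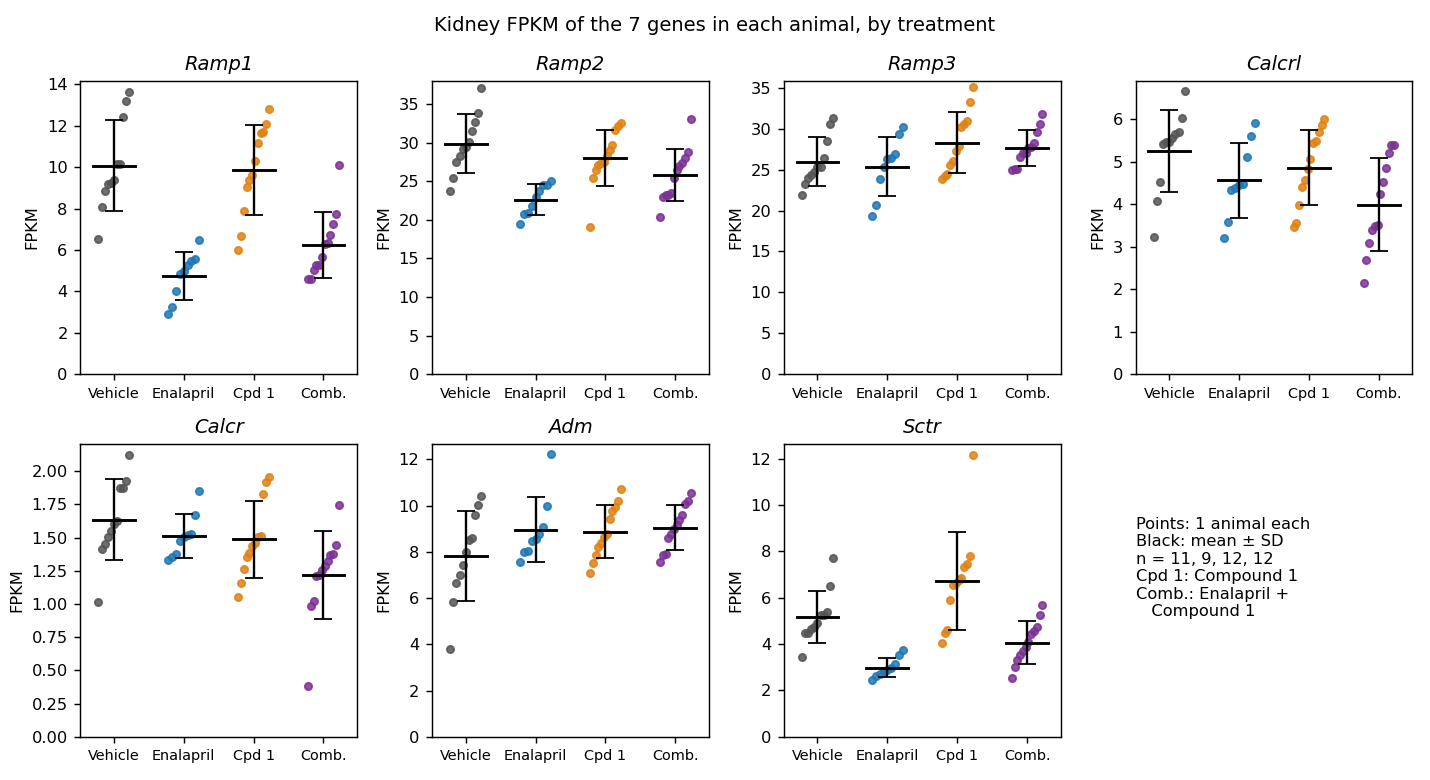
Kidney FPKM (y axis, linear, from 0) of each of the 7 genes in each of 44 animals (points) by treatment group (x axis), with the group mean and SD in black. All 9 Enalapril animals lie below every Vehicle animal for Ramp1, whereas the Ramp3 and Adm points overlap across all 4 groups.

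The 3 promoters printed here belong to Ramp1 and Sctr, which were lower with Enalapril, and to Ramp3, the family member closest to Vehicle under that drug. The windows are the 250 bases before the annotated start in RefSeq (build GRCr8, plus strand), at chr9:99212866-99213115 for Ramp1, chr14:85741064-85741313 for Ramp3 and chr13:33680377-33680626 for Sctr. Capitals mark the GC box, GGGCGG, and the CCAAT box, each on either strand, as for all motifs searched.
Ramp1: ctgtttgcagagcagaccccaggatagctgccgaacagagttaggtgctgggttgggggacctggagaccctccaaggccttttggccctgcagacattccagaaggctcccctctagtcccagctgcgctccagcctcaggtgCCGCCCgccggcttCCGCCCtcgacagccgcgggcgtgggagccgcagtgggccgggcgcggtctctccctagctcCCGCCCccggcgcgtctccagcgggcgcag
Ramp3: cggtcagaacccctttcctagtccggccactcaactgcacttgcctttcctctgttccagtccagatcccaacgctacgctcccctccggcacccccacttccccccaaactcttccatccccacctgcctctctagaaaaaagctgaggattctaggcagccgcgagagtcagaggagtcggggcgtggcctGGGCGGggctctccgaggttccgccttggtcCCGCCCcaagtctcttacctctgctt
Sctr: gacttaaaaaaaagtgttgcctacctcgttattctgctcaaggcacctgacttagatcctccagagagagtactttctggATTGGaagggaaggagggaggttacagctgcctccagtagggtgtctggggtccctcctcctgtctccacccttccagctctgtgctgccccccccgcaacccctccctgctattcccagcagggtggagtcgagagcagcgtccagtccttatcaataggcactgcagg
The Ramp1 window held 70% G and C with 3 GC boxes, the Ramp3 window 61.6% with 2 GC boxes, and the Sctr window 56% with 1 CCAAT box and no GC box. Among 9745 tested genes with a window of this length the median was 60% G and C, 58.6% held a GC box and 35.4% a CCAAT box. Windows were found for 6 of the 7 genes, all but Ramp2. The Calcrl window had 43.6% G and C, at the 5.50 percentile of tested windows, and none of the 6 motifs searched. The Calcr window had 70% G and C, 2 GC boxes and 2 copies of TGACG, the core of the cyclic AMP response element and also the start of its full form, which 27.4% of windows held, and the Adm window had 58.8% and 1 GC box. The full cyclic AMP element TGACGTCA (2.66% of windows), the hypoxia element core ACGTG (21.8%) and TATAAA (6.59%) were in none of the 6 windows. These are matches of letters only, and Ramp1 and Sctr shared none of the motifs searched.

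Enalapril against Vehicle asks what angiotensin-converting enzyme inhibition alone did to these genes. A gene was called when its limma adjusted p over all 13482 genes was under 0.05 and its fold was above 1.5 or below 0.66. With Enalapril 611 genes were called (4.53% of those tested), 4.04% lower and 0.490% higher. Of the 7 genes, Ramp1 and Sctr were called lower and 5 were not called. Because the genes were picked with these results in view, the calls describe where they stand in the table and are not independent evidence.

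Ramp1, the partner that makes the CGRP receptor, ran from 6.55 to 13.6 FPKM in Vehicle with a median of 9.39, and from 2.90 to 6.48 with a median of 4.98 in Enalapril. The groups did not overlap, which was true of 0.860% of tested genes in this direction. The mean was 4.75 ± 1.15 FPKM (SD, n = 9) against 10.1, and the log2 fold change was -1.08 (SE 0.14, 95% interval -1.37 to -0.79), the 6th smallest p in the table. Sctr ran from 3.46 to 7.71 FPKM in Vehicle with a median of 4.92 and from 2.47 to 3.72 in Enalapril with a median of 2.86. Of the 9 Enalapril animals 7 were below the lowest Vehicle animal and all 9 were below the Vehicle median. The log2 fold change of Sctr was -0.75 (SE 0.11, 95% interval -0.99 to -0.52). Under quantile normalization it was -0.55 and Sctr was not called.

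Ramp2, the adrenomedullin receptor partner known from endothelium, ran from 19.5 to 25.0 FPKM in Enalapril with a median of 23.0, against 23.7 to 37.1 in Vehicle with a median of 29.5. The ranges touched, with 6 of 9 Enalapril animals below every Vehicle animal. Its log2 fold change was -0.39 (SE 0.07), past the adjusted p limit, as were 30.2% of tested genes, but short of the fold limit. Ramp3 had a median of 26.4 FPKM in Enalapril against 25.3 in Vehicle and a log2 fold change of -0.04 (SE 0.08, 95% interval -0.21 to 0.13), a value whose sign turned positive under other scalings. Calcrl had a log2 fold change of -0.20 (SE 0.12), Calcr one of -0.09 (SE 0.12) and Adm one of 0.23 (SE 0.14), and all 3 intervals included 0. For Adm 8 of 9 Enalapril animals were above the Vehicle median, and 1 was above the highest Vehicle animal.

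**Figure D2:**
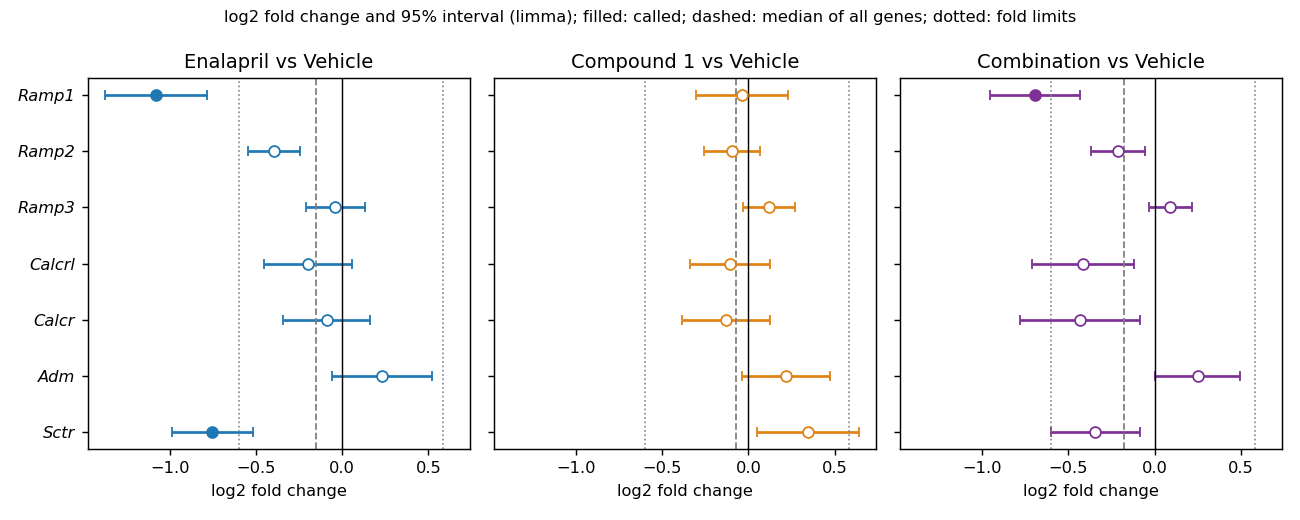
log2 fold change against Vehicle (x axis) of the 7 genes (rows) under each of the 3 treatments. Points are limma estimates with 95% intervals, filled where the gene was called, with dashed lines at the median of all genes and dotted lines at the fold limits. Ramp1 at -1.08 and Sctr at -0.75 are filled with Enalapril, Ramp1 at -0.69 with the combination, and none with Compound 1.

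Compound 1 against Vehicle asks the same of the soluble guanylate cyclase stimulator. It called 27 genes (0.200%), and 0 of the 7. Of the 7, 1 (Sctr) had an unadjusted limma p under 0.05, beside 1793 of all 13482 tested genes. Ramp1 ran from 5.98 to 12.8 FPKM with a median of 9.96, and its animals spread over almost the whole Vehicle range. Its log2 fold change was -0.04 (SE 0.13, 95% interval -0.30 to 0.23), and the sign turned positive under several of the other settings tried. Sctr ran from 4.06 to 12.2 FPKM with a median of 6.70, and 9 of 12 animals were above the Vehicle median and 2 above the highest Vehicle animal. Its log2 fold change was 0.34 (SE 0.14, 95% interval 0.05 to 0.64), on the opposite side of 0 from its value with Enalapril. Ramp2 at -0.09, Ramp3 at 0.12, Calcrl at -0.11, Calcr at -0.13 and Adm at 0.22 on the log2 scale all had intervals that included 0.

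The combination against Vehicle called 995 genes (7.38%), 6.39% lower, and of the 7 genes Ramp1 alone. These 3 comparisons share the 11 Vehicle animals. Ramp1 ran from 4.58 to 10.1 FPKM with a median of 5.98, and 8 of 12 animals were below the lowest Vehicle animal. Its log2 fold change was -0.69 (SE 0.13, 95% interval -0.95 to -0.43). Without the 2 Vehicle animals with the highest Ramp1, numbered 1003 and 1004, it was -0.59 and Ramp1 was no longer called, nor was it under median-of-ratios scaling (-0.52), quantile normalization (-0.49) or with the inner medulla markers as a covariate (-0.49). Sctr ran from 2.54 to 5.67 FPKM with a median of 3.98, with 3 of 12 animals below the Vehicle range and 10 below the Vehicle median. Its log2 fold change was -0.34 (SE 0.13), short of the fold limit. Under the other settings tried it ran from -0.36 to -0.01 (adjusted limma p up to 0.98).

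Calcrl, the receptor subunit shared by CGRP and adrenomedullin, ran from 2.13 to 5.39 FPKM in the combination with a median of 3.88, against 3.22 to 6.67 and a median of 5.47 in Vehicle. All 12 animals were below the Vehicle median and 3 were below the Vehicle range. Its log2 fold change of -0.42 (SE 0.14) passed the adjusted p limit but not the fold limit, and the same held for Calcr at -0.43 (SE 0.17) and Ramp2 at -0.21 (SE 0.08). The adjusted p limit alone was passed by 45.6% of tested genes in this comparison. With each animal left out in turn, the adjusted limma p rose as high as 0.072 for Calcr, 0.053 for Ramp2 and 0.042 for Calcrl. Under the other settings tried, Calcrl ran from -0.46 to -0.14 (adjusted limma p up to 0.77). Calcr ran from -0.47 to -0.17 (up to 0.65) and Ramp2 from -0.21 to -0.04 (up to 0.74). Calcr included 1 animal, numbered 4007, at 0.380 FPKM, below the next lowest at 0.980. The same animal had the highest Ramp1 (10.1 FPKM), the highest Ramp2 (33.0) and the lowest Calcrl (2.13) of its group. Ramp3 had a median of 27.3 FPKM and a log2 fold change of 0.09 (SE 0.06), and Adm had a median of 9.07 and a log2 fold change of 0.25 (SE 0.12), and neither passed the adjusted p limit.

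The treated groups were then set against each other in a fit of all 4 groups. The combination against Enalapril called 1 gene (0.00742%) and 0 of the 7. Of the 7, 4 had an unadjusted limma p under 0.05, beside 1401 of all 13482 tested genes. Ramp1 was 0.39 higher on the log2 scale in the combination (SE 0.14, limma adjusted p = 0.32) and Sctr 0.41 higher (SE 0.14, adjusted p = 0.28). Against Compound 1, the combination called 314 genes (2.33%), 2.05% lower, and of the 7 Ramp1 at -0.65 (SE 0.13) and Sctr at -0.69 (SE 0.13) were called lower. The combination animals received the lower Compound 1 dose in this comparison.
Enalapril against Compound 1 called 299 genes (2.22%), 1.89% lower, and of the 7 again Ramp1 and Sctr. Sctr had the 4th smallest p of the table at a log2 fold change of -1.10 (SE 0.14), and Ramp1 the 9th at -1.04 (SE 0.14). The highest Enalapril animal had 3.72 FPKM of Sctr and the lowest Compound 1 animal 4.06, so the groups did not overlap for Sctr, as for 0.148% of tested genes in this direction. For Ramp1 the highest Enalapril animal, at 6.48, was above the lowest Compound 1 animal, at 5.98.

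Whether Compound 1 altered the effect of Enalapril was tested as an interaction, in which 1 gene of the table and 0 of the 7 were called. Ramp1 (0.43, SE 0.20) and Ramp2 (0.27, SE 0.11) were among 579 of the 13482 genes with an unadjusted limma p under 0.05. Both had an adjusted p of 0.99. Averaged over the other drug, a contrast added after the data were seen, Compound 1 went with a Sctr level 0.38 higher on the log2 scale (SE 0.10, 95% interval 0.18 to 0.57, limma adjusted p = 0.022). Sctr passed the adjusted p limit here, as did 417 of the 13482 genes in all, but fell short of the fold limit. With both limits the contrast called 0.171% of genes. In the same contrast for Enalapril, which called 3.03% of genes, Sctr was at -0.72 (SE 0.10) and Ramp1 at -0.87 (SE 0.10). Sctr was called lower in Enalapril against Vehicle and in the combination against Compound 1. The latter groups differed in Enalapril and also in the final Compound 1 dose, 1 mg/kg/day in the combination and 3 alone. The interaction and the averaged contrasts share this dose difference, and its part in the Sctr values was not tested. The group means of Sctr were 5.16 FPKM in Vehicle, 2.99 in Enalapril, 6.72 in Compound 1 and 4.06 in the combination.

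The proportions of the RAMP mRNAs differed in the same direction. Ramp1 made up 15.2% ± 2.26 of the summed Ramp FPKM in Vehicle, 8.97% ± 1.89 in Enalapril, 14.8% ± 2.08 in Compound 1 and 10.4% ± 2.04 in the combination (SD, n = 11, 9, 12 and 12). The Vehicle and Enalapril ranges of this share met at their ends, 11.6% to 18.7% against 6.33% to 11.8%. Ramp3 held 39.6% ± 4.38 in Vehicle and 48.0% ± 3.67 in Enalapril, and Ramp2 45.3% ± 3.10 and 43.0% ± 2.84. The ratio of Ramp1 to Calcrl averaged 2.03 in Vehicle, 1.08 in Enalapril, 2.06 in Compound 1 and 1.75 in the combination, where animal 4007 reached 4.73. The ratio of Ramp3 to Calcrl averaged 5.15, 5.76, 5.92 and 7.48 in the same order. These shares and ratios come from the same values as the folds above and are given as a description.

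The ligand genes were mostly near the lower end of the measurement. Calca and Calcb, which encode CGRP and, for Calca, calcitonin, averaged 0.403 and 0.418 FPKM in Vehicle and did not pass the filter, nor did the amylin gene Iapp at 0.110. The most abundant ligand of the family was Adm2, which encodes adrenomedullin 2 (intermedin), at 33.7 ± 6.04 FPKM in Vehicle (SD, n = 11). Adm2 averaged 39.7 FPKM in Enalapril and 42.5 in the combination, with log2 fold changes of 0.25 (SE 0.09, limma adjusted p = 0.047) and 0.34 (SE 0.10, adjusted p = 0.0089), both short of the fold limit. Sct, the secretin gene, ran from 0.872 to 3.71 FPKM in Vehicle with a median of 1.71 and from 0.355 to 2.19 in Enalapril with a median of 1.07. These ranges overlapped widely, and Sct fell by 0.82 on the log2 scale with Enalapril (SE 0.28, limma adjusted p = 0.034). With Compound 1 its log2 fold change was -0.56 (adjusted p = 0.34) and with the combination -0.44 (adjusted p = 0.12), neither called.

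In the wider pathway, 9 lists of ligands, other class B receptors, atypical receptors, adenylyl cyclases, cyclic AMP effectors, phosphodiesterases, desensitisation genes and peptide-processing enzymes had 56 tested genes. Enalapril called 1 higher and 3 lower (7.14%, beside 4.53% of all genes), with a median log2 fold change of -0.19 beside -0.15 for all genes. Compound 1 called 0 of the 56, with a median of -0.05 beside -0.07. Of the 56, 5 had an unadjusted limma p under 0.05, beside 1793 of all 13482 tested genes. The combination called 1 higher and 2 lower (5.36%, beside 7.38%), with a median of -0.16 beside -0.18. Of the 5 tested other class B receptors none was called against Vehicle. The glucagon receptor gene Gcgr stood at 5.55 FPKM in Vehicle, 7.58 in Enalapril and 8.25 in the combination, and its log2 fold change was 0.45 with Enalapril (SE 0.10) and 0.54 with the combination (SE 0.13), short of the fold limit. The GLP-1 receptor gene Glp1r, a low gene, averaged 0.968 FPKM in Vehicle, 1.37 in Enalapril, 0.670 in Compound 1 and 1.11 in the combination. Against Vehicle the log2 fold change of Glp1r was 0.48 with Enalapril (SE 0.16), -0.50 with Compound 1 (SE 0.20) and 0.17 with the combination (SE 0.18). Against Compound 1 it was called higher in Enalapril, by 0.98 (SE 0.19, limma adjusted p = 0.00046), and in the combination, by 0.68 (SE 0.17, adjusted p = 0.0050).

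Among the genes downstream of the receptors, the adenylyl cyclase genes Adcy2 and Adcy7 were lower with Enalapril and with the combination. Adcy2 averaged 1.44 FPKM in Vehicle, 0.907 in Enalapril and 0.801 in the combination, with log2 fold changes of -0.63 (SE 0.16, limma adjusted p = 0.0056) and -0.79 (SE 0.15, adjusted p = 0.00030). Adcy7, a cyclase prominent in immune cells, averaged 3.57, 2.17 and 2.04 FPKM, with log2 fold changes of -0.69 (SE 0.16, adjusted p = 0.0036) and -0.81 (SE 0.17, adjusted p = 0.00066). Adcy6, the most abundant cyclase at 31.0 FPKM, had log2 fold changes of -0.14 and -0.25 and was not called. None of the 14 cyclic AMP effectors, 9 phosphodiesterases or 7 desensitisation genes was called with any treatment against Vehicle. With Enalapril 6, 4 and 4 of them had an unadjusted limma p under 0.05, beside 5772 of all 13482 tested genes. Mme, which encodes neprilysin, a peptidase that cleaves adrenomedullin and other vasoactive peptides, rose from 30.3 ± 11.1 FPKM in Vehicle to 42.6 ± 6.06 in Enalapril and 50.9 ± 8.21 in the combination. Its log2 fold changes were 0.59 (SE 0.21, adjusted p = 0.035) and 0.84 (SE 0.19, adjusted p = 0.0011). With a pseudocount of 1, or with the inner medulla or mesenchyme markers as a covariate, 0 of the 56 were called with Enalapril. Of all genes 1.85%, 0.675% and 0.00742% were called under these settings. Of the alternative adrenomedullin-binding receptors, Ackr3 stayed at 22.5 FPKM in Vehicle and 22.0 in Enalapril, with a log2 fold change of -0.03 (SE 0.08). Gpr182 was at 4.63 FPKM in Vehicle and 3.94 in Enalapril, with a log2 fold change of -0.23 (SE 0.11, limma adjusted p = 0.12), and was not called.

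The summed levels of several marker lists differed with the same treatments. The 5 macrophage markers (Cd68, Csf1r, Adgre1, Cd14, Itgam) summed to 89.7 to 175 FPKM in Vehicle (median 121), 66.8 to 94.4 in Enalapril (median 87.0), 78.6 to 162 in Compound 1 (median 114) and 65.1 to 104 in the combination (median 78.5). Of the 5, 3 were called lower with Enalapril and 3 with the combination, and none was at 0 in any animal. The 6 tested T and B lymphocyte markers summed to a median of 28.7 FPKM in Vehicle (20.3 to 36.4), 18.5 in Enalapril (13.7 to 24.8), 27.3 in Compound 1 (17.5 to 39.6) and 18.1 in the combination (12.9 to 29.1), with 3 and 5 called lower with Enalapril and the combination. The 8 mesenchyme and fibroblast markers summed to a median of 344 FPKM in Vehicle (264 to 481), 225 in Enalapril (161 to 325), 341 in Compound 1 (210 to 453) and 228 in the combination (179 to 312), with 4 and 4 called lower. The 9 vascular smooth muscle and pericyte markers summed to a median of 336 FPKM in Vehicle (267 to 405), 257 in Enalapril (214 to 301), 369 in Compound 1 (276 to 485) and 290 in the combination (247 to 358). With Enalapril the log2 fold change was below 0 for 9 of 9 and 0 were called. Of the 9, 6 had an unadjusted limma p under 0.05, beside 5772 of all 13482 tested genes. The 6 tested nerve and Schwann cell markers summed to a median of 26.7 FPKM in Vehicle (16.7 to 39.2), 18.9 in Enalapril (14.8 to 28.5), 26.1 in Compound 1 (18.7 to 39.6) and 20.3 in the combination (14.7 to 28.8), with 2 and 3 called lower. The 7 proximal tubule markers went the other way, with a median sum of 2074 FPKM in Vehicle (1387 to 2307), 2406 in Enalapril (2137 to 2741), 2024 in Compound 1 (1081 to 2349) and 2491 in the combination (2020 to 2733), and 0 called. Of the 11 tested endothelial markers none was called against Vehicle, and their sum had medians of 360 FPKM in Vehicle and 329 in Enalapril. The 4 tested inner medulla markers summed to a median of 73.6 FPKM in Vehicle (52.6 to 129), 56.5 in Enalapril (37.8 to 84.6), 76.3 in Compound 1 (61.4 to 118) and 60.2 in the combination (45.7 to 123). Their log2 fold changes were below 0 for 4 of 4 with Enalapril and with the combination, and 0 were called.
The part of the leukocyte, smooth muscle, nerve and proximal tubule markers in the Ramp1 and Sctr values was not tested. With the mesenchyme marker mean as a covariate, a fit added after the data were seen, Ramp1 with Enalapril was at -0.67 and Sctr at -0.54, neither was called, and 0.00742% of all genes were. With the endothelial marker mean as a covariate both remained called. The same held with Enalapril for the inner medulla marker mean, under which 0.675% of all genes were called.

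Within each treatment group, animals with more Ramp1 tended to have more Ramp2, and in all groups but Enalapril also more Sctr. Each animal's deviation from its group mean was taken on the log2(FPKM + 0.1) scale, which removes the treatment differences, and the 21 pairs of the 7 genes were compared over 44 animals. The permutation tests found 3 pairs with an adjusted p under 0.05 over the 21. Ramp1 and Ramp2 gave r = 0.720 and rho = 0.697 (permutation p = 1e-05 for each, the smallest possible, adjusted p = 0.00021), and r was 0.661 without the 2 animals farthest from the median of Ramp1. The r within groups was 0.759 in Vehicle, 0.630 in Enalapril, 0.851 in Compound 1 and 0.640 in the combination. Ramp1 and Sctr gave r = 0.560 and rho = 0.576 (permutation p = 8.0e-05 and 1.0e-04, adjusted p = 0.00084 and 0.0010), and r = 0.618 without the 2 farthest. Within groups it was 0.812 in Vehicle, 0.785 in Compound 1 and 0.487 in the combination, but -0.163 in Enalapril. Sctr spanned 2.47 to 3.72 FPKM in Enalapril, and the part of this range in the r was not tested. Ramp2 and Sctr gave r = 0.533 and rho = 0.490 (permutation p = 0.00078 and 0.0015, adjusted p = 0.0055 and 0.010), and r = 0.452 without the 2 farthest, with -0.375 within Enalapril.

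For Calcrl no relation with the RAMPs was found over all animals. Its r was -0.0647 with Ramp1, 0.0477 with Ramp2 and 0.179 with Ramp3 over the 44 animals, with adjusted permutation p values of 0.80, 0.81 and 0.58. The groups differed in sign: for Ramp2 and Calcrl r was 0.669 in Enalapril and 0.408 in Compound 1 but -0.226 in Vehicle and -0.238 in the combination, and for Ramp1 and Calcrl 0.479 in Compound 1 but -0.340 in Vehicle and -0.323 in the combination. For Ramp3 and Calcrl it was 0.665 in Compound 1 and between -0.169 and 0.108 in the other groups. These differences between groups were not tested. Ramp3 likewise had r = 0.109 with Ramp1 and 0.108 with Ramp2 (adjusted permutation p = 0.76 for both). All points share library, depth and the composition of the tissue piece. Under median-of-ratios scaling r was 0.668 for Ramp1 and Ramp2, 0.505 for Ramp1 and Sctr and 0.439 for Ramp2 and Sctr. Other pairs shifted under this scaling. The r of Calcr went from -0.306 to -0.509 with Ramp1 and from -0.238 to -0.515 with Ramp2. In the main scaling, r of Ramp2 and Calcr was 0.124 without the 2 animals farthest from the median of Ramp2. The rescaled r values were not tested.

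**Figure D3:**
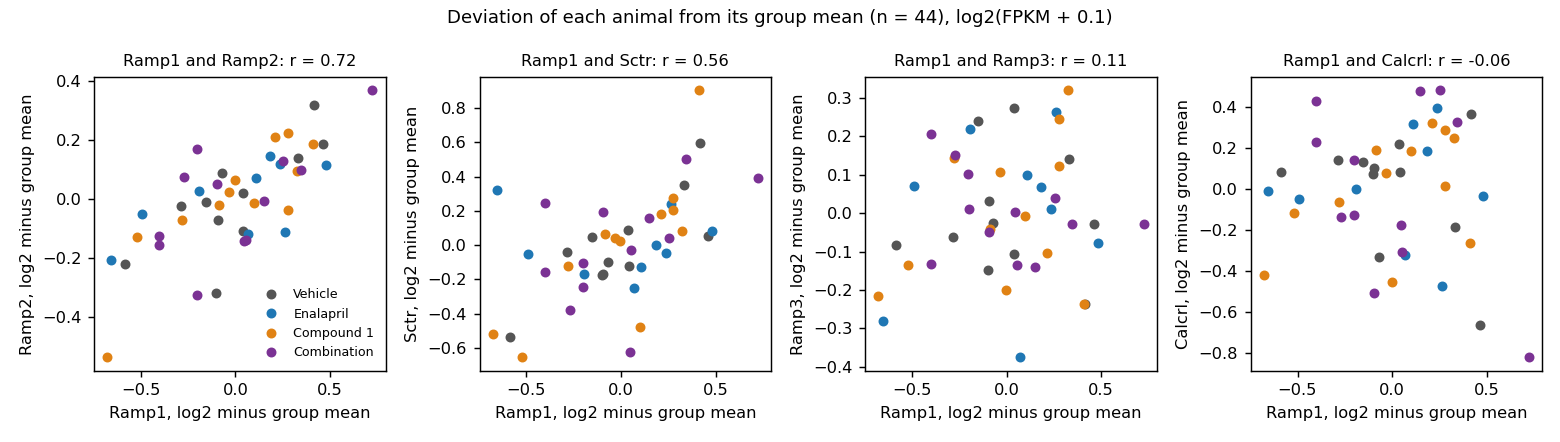
Deviation of each of 44 animals from its treatment group mean, in log2(FPKM + 0.1), for Ramp1 (x axis) against Ramp2, Sctr, Ramp3 and Calcrl (y axes), coloured by group. The Ramp2 and Sctr panels slope upward (r = 0.72 and 0.56) and the Ramp3 and Calcrl panels do not (r = 0.11 and -0.06).

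The genes and markers that varied most like each member, over the same 44 deviations and 13438 compared genes, are given as a description without a test. For Ramp1 the nearest were Cmtm7 (r = 0.845), Rpl6 (0.841), Tubb5 (0.831), the macrophage gene Cd68 (0.826) and Ifitm1 (0.826). For Ramp2 they were the calcium channel gene Trpv6 (0.788), Ifitm3 (0.770), Clec4a3 (0.743), Lgals3 (0.737) and the inflammasome adaptor gene Pycard (0.735). Those of Sctr were Cpz (0.791), the ductal keratin gene Krt19 (0.767), the immunoproteasome gene Psmb9 (0.766), Bak1 (0.761) and LOC103689961 (0.758). Calcrl had a different company, with Adam10 (0.841), Nrp1 (0.831), Gask1b (0.829), Arcn1 (0.829) and the endothelin receptor gene Ednrb (0.827). Calcr was nearest to Rexo4 (0.726) and Scnn1g (0.714), a subunit of the epithelial sodium channel, Adm to Ccdc186 (0.706) and Fcho2 (0.679), and Ramp3 to Phb (0.617) and St3gal5 (0.585), the lowest leading value of the 7.

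Against the marker lists, the median r with the 5 macrophage markers was 0.678 for Ramp1, 0.642 for Ramp2 and 0.645 for Sctr, and 0.00085 for Ramp3. Under median-of-ratios scaling the first 3 were 0.626, 0.516 and 0.589. With the 6 lymphocyte markers it was 0.62, 0.47 and 0.50 for Ramp1, Ramp2 and Sctr. With the 11 endothelial markers it was 0.47 for Calcrl and 0.31 for Ramp3, but 0.07 for Ramp2 and 0.04 for Ramp1. The leading list of Ramp3 depended on the scaling. Under median-of-ratios scaling Ramp3 was at 0.36 with the proximal tubule markers, from 0.17, and at 0.29 with the endothelial markers. The median r of Calcrl with all genes was 0.204, and under median-of-ratios scaling its value was 0.244 with the endothelial and 0.247 with the thick ascending limb and distal tubule markers, so its leading list depended on the scaling. With the 9 smooth muscle markers the median r was 0.45 for Ramp1, 0.44 for Ramp2 and 0.42 for Sctr. Under median-of-ratios scaling these were lower, at 0.31, 0.19 and 0.25. Sctr was opposed to the proximal tubule markers at -0.59, and its median r with the collecting duct principal cell markers was 0.06. Calcr was highest with the thick ascending limb and distal tubule markers at 0.40.

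**Figure D4:**
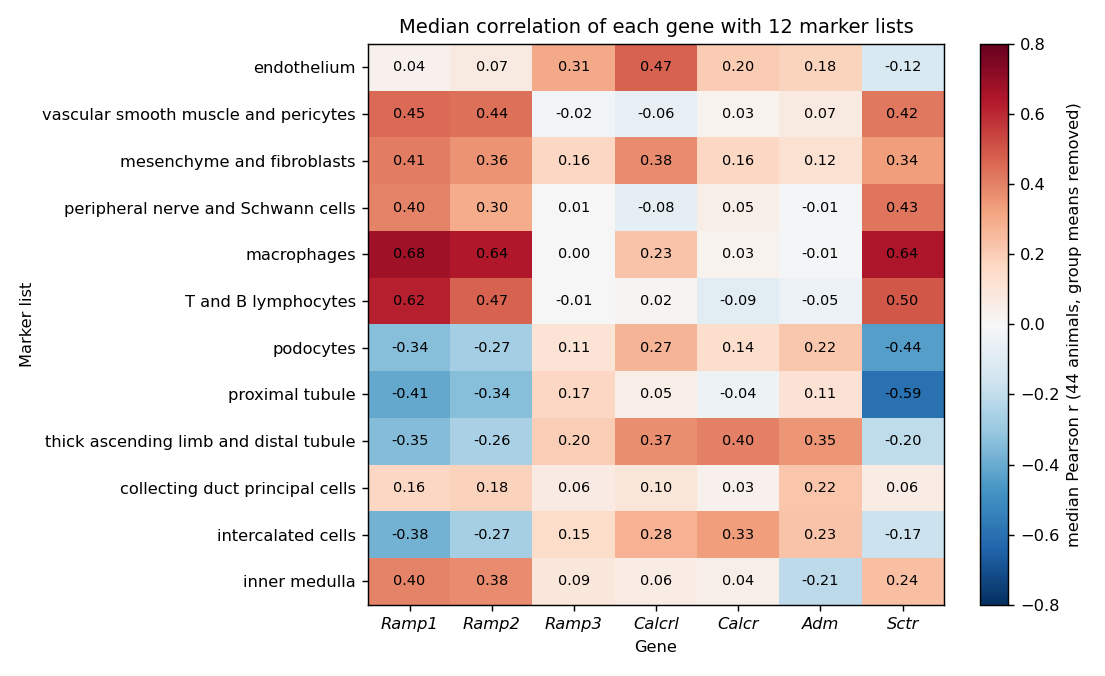
Median Pearson r (colour and printed value) between each of the 7 genes (columns) and 12 marker lists of kidney regions and cell types (rows), over 44 animals with group means removed. Ramp1, Ramp2 and Sctr share their highest values in the macrophage row (0.68, 0.64 and 0.64), and Calcrl has its highest in the endothelium row (0.47), an order that did not hold under median-of-ratios scaling (0.244, against 0.247 with the thick ascending limb and distal tubule).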

How the data were processed

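Kidney mRNA of 44 rats was sequenced by the authors (TruSeq stranded libraries, paired-end reads on a NovaSeq) and deposited as 1 table of FPKM per gene and animal, on rat build rn6 per the labels. No aligner or counter is named here, as it was not given in the sources used here. FPKM values are not counts, so limma 3.58.1 (R 4.3.3, trend and moderated variance) was run on log2(FPKM + 0.1) for genes that exceeded an FPKM of 1 in 9 or more animals, with 2 groups a fit against Vehicle and all 4 groups for the other contrasts, and Benjamini-Hochberg adjustment over all 13482 genes. Fold changes are therefore on the log2(FPKM + 0.1) scale, which understates changes of low genes. Calls needed an adjusted p under 0.05 and a fold above 1.5 or below 0.66. Correlations used deviations from group means, permuted 100000 times within groups. The fit was tested on simulated data. The 7 genes, the pathway and marker lists and the alternatives were chosen with earlier results of these data known. All 7 genes are described, with the called or nearest pathway genes and the 5 nearest genes to each (2 printed for Ramp3, Calcr and Adm). Genes with several entries (Gnas, Pde4c, Slc14a2) used the entry with the highest mean. Pthlh, Vipr1, Pecam1, Slc5a3 and Cd79a were not analysed here. Empty columns were left out. Promoter windows came from RefSeq (GRCr8), and no coordinate was carried between builds. Each sample was 1 animal. The alternatives covered the pseudocount, filter, scaling, sample weights, marker covariates and animals left out.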

Additional observations from a re-analysis of the deposited data

How the results depend on the processing

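No paired analysis was possible because animal numbers do not repeat across groups. Ramp1 with Enalapril was called under 15 of 16 alternatives (-1.24 to -0.67 on the log2 scale, adjusted limma p up to 0.39), Sctr with Enalapril under 14 of 16 (-0.80 to -0.54) and Ramp1 with the combination under 11 of 16 (-0.70 to -0.47). Leaving out each animal in turn kept the numbers of the 7 genes called in all comparisons, with Ramp1 from -1.14 to -0.998 and Sctr from -0.81 to -0.69 with Enalapril, and Ramp1 from -0.76 to -0.64 with the combination.

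With Enalapril the 7 genes called went from 2 to 1 under quantile normalization (2.44% of all genes called) and to 0 with the mesenchyme covariate (0.00742%). With the combination they went from 1 to 0 under median-of-ratios scaling (4.81% of all genes), quantile normalization (4.06%), the inner medulla covariate (4.41%), the mesenchyme covariate (0.282%) and without Vehicle animals 1003 and 1004 (5.18%). They went to 5 with no fold threshold, where 45.6% of all genes were called. For the combination against Compound 1, where the main fit called 2.33% of all genes, they went from 2 to 0 under 4 settings. These were pseudocount 1 (0.853% of all genes), median-of-ratios scaling (1.76%), quantile normalization (1.58%) and the inner medulla covariate (0.223%). The pathway genes called with Enalapril went from 4 to 0 under pseudocount 1 (1.85% of all genes), the inner medulla covariate (0.675%) and the mesenchyme covariate (0.00742%). They went to 1 under FPKM above 5 (3.03%). They went to 2 with no filter (1.89%), without mitochondrial genes (2.87%) and with the endothelium covariate (3.17%). With no fold threshold they went to 22, where 30.2% of all genes were called. With the combination they went from 3 to 5 with no filter (3.61% of all genes), 1 under FPKM above 5 (4.94%), 0 with the mesenchyme covariate (0.282%) and 26 with no fold threshold (45.6%). With Compound 1 they went from 0 to 1 with the inner medulla covariate (0.579%). The cause of these shifts was not tested.

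Signs turned only for values that were not called. Ramp3 with Enalapril became 0.114 under median-of-ratios scaling, 0.0716 under quantile normalization, 0.0709 without mitochondrial genes and 0.0035 with sample weights, and lay between -0.0723 and 0.0077 with each animal left out. Calcr with Enalapril became 0.0539, 0.134 and 0.014 under the first 3 of these, 0.0728 with the inner medulla covariate and 0.136 with the mesenchyme covariate, under which Calcrl became 0.025. Ramp1 with Compound 1 became 0.0361, 0.0472, 0.016 and 0.103 under the same scalings, gene removal and weights, 0.0035 without the 6 animals listed last, 0.0374 with the mesenchyme covariate and 0.0610 without Vehicle animals 1003 and 1004, and lay between -0.0949 and 0.025 with each animal left out. Calcr did not pass the filter of FPKM above 5. Without counts, depth is known only in relative terms, and low genes such as Calcr, Calca and Calcb are limited by it. The mesenchyme covariate and the removal of animals 1003 and 1004 were chosen after seeing the data.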
